A study of Mus musculus with 12 samples.

Results

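Amino acids, taurine and creatine cross the plasma membrane through carriers of the solute carrier families Slc6, Slc7, Slc36 and Slc38. Of the 18903 genes counted in cultured mouse astrocytes, 27 carried a symbol of one of these families, and each of them was taken. The families themselves were chosen with earlier results of these data known. 26 of them encode carriers, 7 of the family Slc6, 9 of Slc7, 2 of Slc36 and 8 of Slc38. The last one, *Slc7a6os*, is named after the carrier gene on the other strand beside it and is no carrier, so it was kept out of the counts of carriers. Another 24 carriers of these families were looked for by name and were absent from the 18903 genes counted, so they could not be analysed.

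The cells were primary astrocytes grown from the brains of pups of both sexes at postnatal days 1, 6 and 8 (P1, P6 and P8), and the question was how the loss of RACK7, a chromatin reader encoded by *Zmynd8*, alters their transcripts. The day, called age below, is that of the pups at dissection, and the cells were afterwards grown in culture until confluent. Ages are thus separate cultures and not stages of the same one. WT pups were hGFAP-cre::*Rack7*+/+ and cKO pups hGFAP-cre::*Rack7* fl/fl, from an allele made in C57BL/6 zygotes, so that both genotypes carried the Cre transgene, which the human GFAP promoter drives in precursors of the dorsal forebrain. Meninges had been stripped from the brains and the flasks had been shaken to remove microglia and oligodendrocytes, and each of the 6 groups had 2 libraries of captured mRNA. Whether a library came from 1 pup or from pooled pups was not stated, so p-values measure the spread between these libraries, and with bulk RNA fewer cells of a type and less RNA per cell cannot be told apart.

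The allele removes exons 3 and 4 of *Zmynd8*, which a count over the whole gene does not show. That count was higher in the libraries labelled cKO at every age, given as counts scaled to library size (CPM). P1 cKO libraries had 213 and 216 CPM and P1 WT libraries 136 each. The values were 242 and 230.5 in P6 cKO, 114 and 116 in P6 WT, 160 and 171 in P8 cKO, and 99.98 and 104 in P8 WT. The direction was opposite to that of a lower transcript, but the count does not measure the deleted exons and so does not check the labels, and the genotypes below are those of the labels. The paper checked RACK7 protein in WT and cKO primary astrocytes by immunoblot, which was not used here. Libraries held between 54413504 and 89183250 counts. The carriers took 0.210% to 0.433% of them, and *Slc6a6*, the taurine carrier, held 25.0% to 44.7% of all counts on carriers.

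Marker genes of several cell types were detected in every group, as the plot of marker lists shows. The summed level of 10 fibroblast and meningeal markers, led by *Col1a1* and *Col1a2*, lay at 688 to 714 CPM in P1 WT libraries and 2934 to 2979 in P1 cKO, at 8367 to 8431 in P6 WT and 3294 to 3545 in P6 cKO, and at 29835 to 31942 in P8 WT and 8418 to 8649.6 in P8 cKO. All 10 were counted in every group except for *Lum*, which was at 0 in P6 cKO. Not all of them followed the sum. At P1 *Fmod* and *Ogn* were lower in cKO than in WT libraries. At P6 *Islr* was higher in cKO, at 226 and 224 CPM against 120 and 126, and *Fmod* overlapped between the labels. 10 astrocyte markers summed to 2497 to 2546 and 2421 to 2441 CPM at P1, to 1909 to 2108 and 1698 to 1839 at P6, and to 1910.4 to 2302 and 971 to 975 at P8, WT before cKO. Some of them went against the sum. *Gfap* was higher in cKO at P1, at 578 and 559 CPM against 390 and 402. *Aldh1l1* was higher in cKO at P6, at 184 and 179 CPM against 132 and 155, and at P8. 9 markers of microglia and macrophages reached 3733 to 3769 and 3110.3 to 3174 CPM at P1, 2450 to 2572 and 2549 to 2689 at P6, and 2458 to 2600.2 and 5114 to 5122 at P8. For 5 detected genes of neural stem cells and proliferation the sums were 496 to 502 and 406 to 407 at P1, 767 to 836 and 393 to 427 at P6, and 1241 to 1271 and 398 to 409 at P8. In the P8 WT libraries *Egfr* made up most of this sum, at 903 and 930 CPM, and *Mki67* was at 155 and 162, against 275 and 240 in P6 WT. The labelled astrocytes thus had all 10 astrocyte markers in every group, and the fibroblast sum was higher in cKO than in WT libraries at P1 and lower in cKO at P6 and P8.

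**Figure D1:**
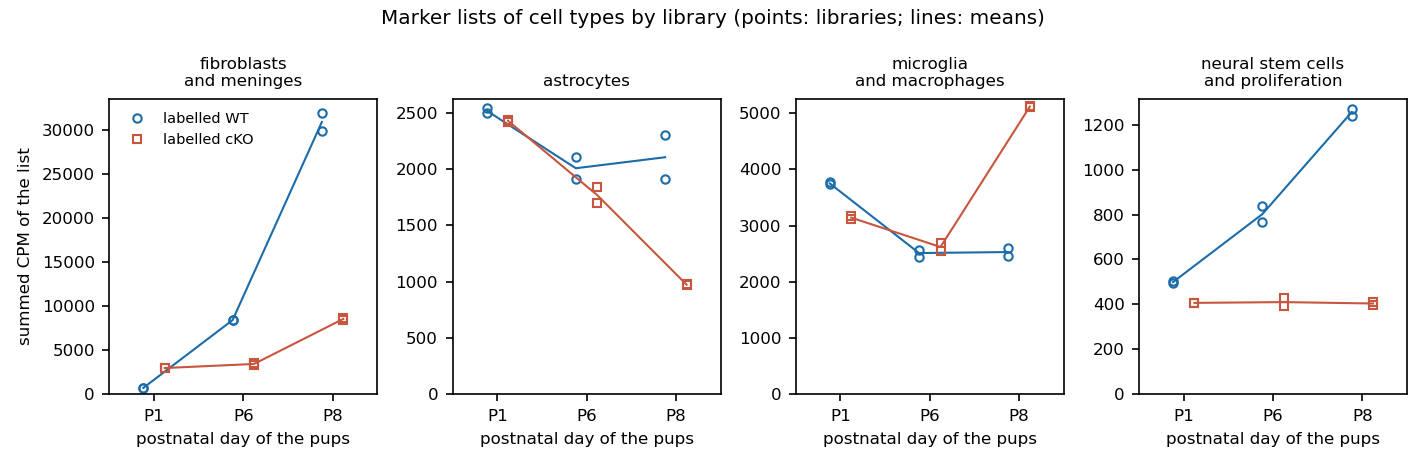
Summed CPM of 4 lists of cell type markers in each library, with postnatal day on the x axis, circles for libraries labelled WT, squares for libraries labelled cKO and lines through the group means. The fibroblast sum reaches 29835 to 31942 CPM in P8 WT libraries, and the microglial sum reaches 5114 to 5122 in P8 cKO libraries.

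Astrocytes clear neurotransmitters and feed neurons with amino acids. Carriers of the Slc6 family use the sodium gradient to take up glycine, taurine, creatine and other small solutes. The Slc7 family holds cationic carriers that work alone and light chains that pair with a heavy chain (*Slc3a2*) to exchange amino acids, among them xCT, which brings in cystine for glutathione. Slc38 carriers move glutamine, alanine and related neutral amino acids with sodium, and the Slc36 carriers act with protons, in part at the lysosome.

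A gene was called different where its Benjamini-Hochberg adjusted p in edgeR's quasi-likelihood test, over 17938 genes and all 12 libraries, was below 0.05 and its fold change at least 1.5. Between genotypes, 5 of 26 carriers were higher in cKO at P1 and 0 lower, where 4.01% of all genes tested were called higher and 0.892% lower. With DESeq2, 6 carriers were higher in cKO at P1 and 0 lower. At an unadjusted p below 0.05 with the same fold, 6 were higher and 0 lower as well. At P6, 2 carriers were higher and 2 lower against 7.16% and 6.38% of all genes, and at P8, 2 were higher and 6 lower against 11.2% and 8.37%. The median difference over the carriers was 0.05, -0.12 and -0.10 (log2) at P1, P6 and P8, beside 0.00, 0.00 and 0.01 over all genes. 12 carriers were called at one or more ages, 8 of them at 1 age, 3 at 2 ages and *Slc7a11* at all 3, and 14 at none. *Slc7a11* and *Slc38a4* were called in both directions, higher in cKO at P1 and lower at P6. The plot of genotype differences gives these values for 23 carriers.

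**Figure D2:**
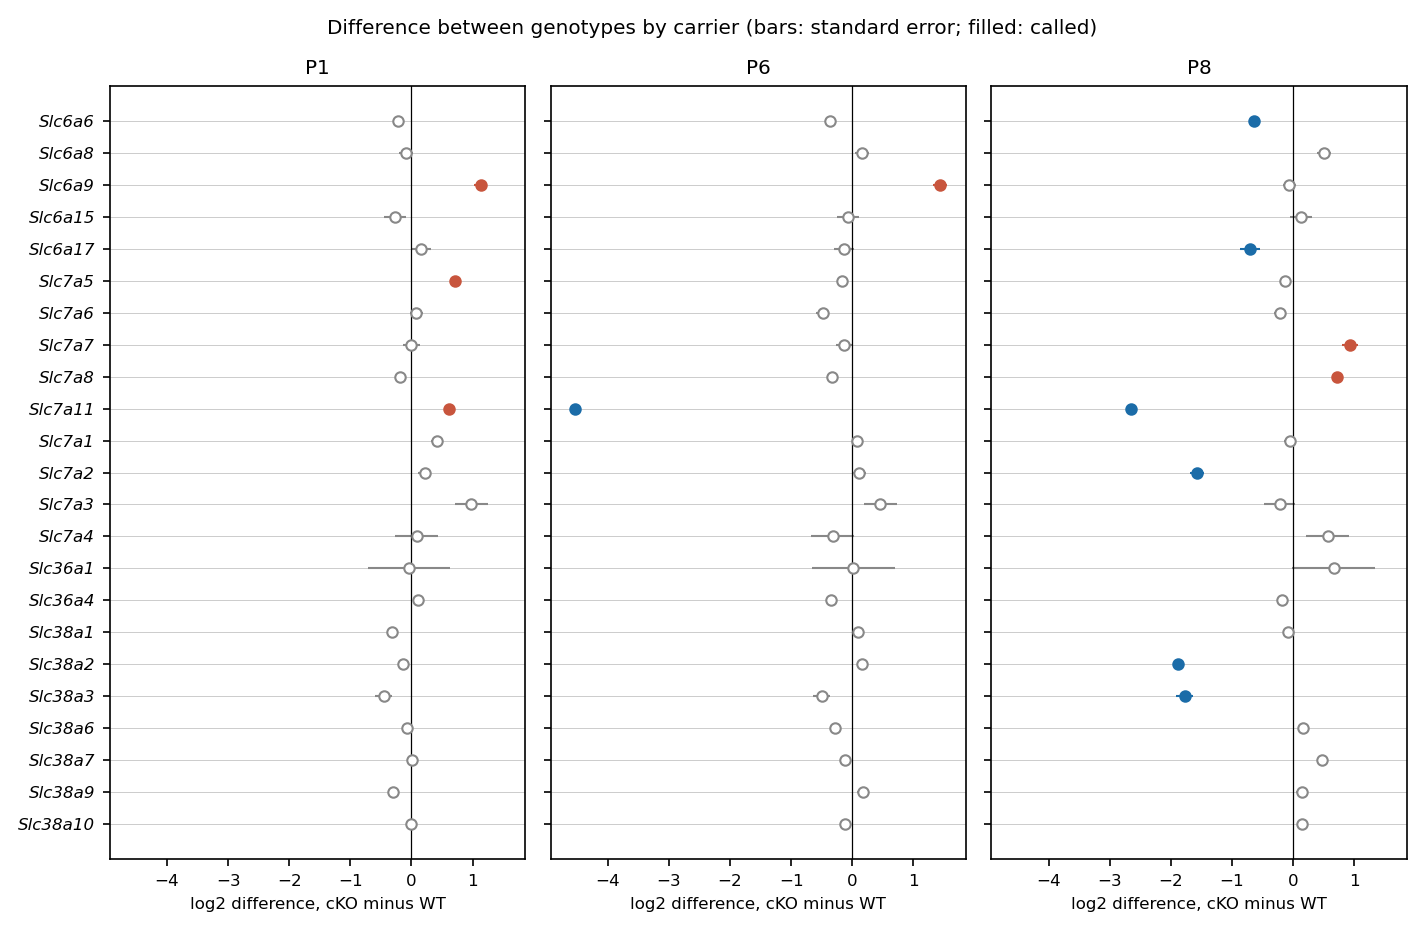
Log2 difference between libraries labelled cKO and WT (x axis) at P1, P6 and P8 for 23 carriers in the order of their roles, without the thinly counted *Slc38a4* and *Slc6a12*. Bars are standard errors of the edgeR fit, filled points are called and open points are not, and *Slc7a11* at P6 lies farthest from 0 at -4.53.

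*Slc7a11* (chr3:49892526-50443614 in GRCm38, minus strand) encodes xCT, the light chain of the cystine and glutamate exchanger. P1 WT libraries had 50.2 and 49.3 CPM and P1 cKO libraries 78.6 and 72.9. At P6 the WT libraries had 278 and 251 CPM and the cKO libraries 10.7 and 12.2. P8 levels were 495 and 498 CPM in WT and 74.7 and 83.7 in cKO. The groups did not overlap at any age, and the order of the labels turned over after P1. The level in cKO was 1.52 times that in WT at P1 (log2 difference 0.61, SE 0.0802, adjusted p = 0.00151), 23.2 times lower at P6 (-4.53, SE 0.0928, adjusted p = 5.57e-09) and 6.27 times lower at P8 (-2.65, SE 0.0842, adjusted p = 3.87e-08). Without replicate 1 of P1 cKO the difference at P1 was 0.55 (log2, adjusted p = 0.0142), which is under the fold required, so the P1 call rested on that library. The genotype effect differed between P1 and P6 by -5.14 and between P6 and P8 by 1.89 (log2, adjusted p = 8.86e-09 and 5.36e-06). The fibroblast sum had the same order of labels at each age as *Slc7a11*, and its part in the result was not tested.

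Sequence upstream of the start is shown for *Slc7a11* and for *Slc38a2*, the carriers with the 2 largest differences at P8. Both are 250 bases from RefSeq in GRCm38.p6, on the minus strand, chr3:50443614-50443863 and chr15:96699729-96699978. Capitals mark matches on either strand to TGATGNAA, the core of the C/EBP-ATF response element through which ATF4 acts on genes of the amino acid response, or to TGACNNNGC, the core of the antioxidant response element bound by NRF2.
Slc7a11: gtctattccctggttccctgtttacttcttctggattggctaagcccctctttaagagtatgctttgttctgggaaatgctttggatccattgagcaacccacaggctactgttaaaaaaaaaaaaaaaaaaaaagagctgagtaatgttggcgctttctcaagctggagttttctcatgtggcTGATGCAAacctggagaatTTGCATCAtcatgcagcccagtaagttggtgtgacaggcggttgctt
Slc38a2: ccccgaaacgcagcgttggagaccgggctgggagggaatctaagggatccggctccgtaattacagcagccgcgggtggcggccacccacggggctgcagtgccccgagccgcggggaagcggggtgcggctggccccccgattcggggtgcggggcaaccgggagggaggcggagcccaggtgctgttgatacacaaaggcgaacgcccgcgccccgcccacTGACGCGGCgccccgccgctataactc

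The *Slc7a11* stretch held 2 matches to TGATGNAA, one on each strand, at 66 to 59 and 47 to 40 bases before the start. RefSeq windows were matched for 16 of the 26 carriers, 31 windows in all, since a gene can have several starts. In the 250 bases before the start, TGATGNAA was matched in 3 of these 31 windows, those of *Slc7a11* and *Slc7a7*, and in 3.45% of all 32851 windows. TGACNNNGC was matched in 5 of the 31, those of *Slc38a2*, *Slc6a9*, *Slc7a1* and *Slc7a6*, and in 10.2% of all windows. The 2 motifs did not overlap in the windows shown.

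Among the other light chains, 3 were called. *Slc7a5* (LAT1, chr8:121881150-121907694, minus strand), the carrier of leucine and other large neutral amino acids, stood at 43.0 and 43.7 CPM in P1 WT and 68.3 and 73.9 in P1 cKO, at 78.5 and 79.5 against 71.8 and 69.2 at P6, and at 156 and 153 against 139 and 143 at P8. It was higher in cKO at P1 (1.64 times, log2 difference 0.72, SE 0.0530, adjusted p = 4.01e-05). Its difference was -0.16 at P6 and -0.13 at P8, under the fold required. The WT libraries thus started from the lower level at P1 and lay slightly above the cKO libraries from P6 on.

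*Slc7a8* (LAT2, chr14:54722209-54781946, minus strand) carries neutral amino acids of all sizes, and *Slc7a7* (y+LAT1, chr14:54369442-54417780, minus strand) exchanges cationic for neutral ones. *Slc7a8* measured 294 and 301 CPM in P1 WT and 263 and 261 in P1 cKO, 212 and 205 against 162 and 169.6 at P6, but 79.3 and 81.1 in P8 WT and 129 and 136 in P8 cKO. *Slc7a7* measured 34.0 and 36.9 against 31.6 and 39.2 at P1, 18.2 and 15.8 against 14.5 and 16.5 at P6, but 16.1 and 15.5 in P8 WT and 32.5 and 27.7 in P8 cKO. Both were higher in cKO at P8, *Slc7a8* by 0.72 (log2, SE 0.0446, adjusted p = 2.33e-06) and *Slc7a7* by 0.93 (SE 0.134, adjusted p = 0.000555), and not at the earlier ages. These were the only carriers called higher at P8, with 1.65 and 1.90 times the WT level, and neither reached 2-fold. The sum of microglial markers was higher in P8 cKO than in P8 WT libraries as well, and its part in these results was not tested. Of its 9 members, *C1qa*, *C1qb* and *C1qc* rose by the most CPM. *Tmem119* was lower, at 24.3 and 21.5 CPM in P8 cKO against 61.8 and 57.7 in P8 WT, and the others were higher, *Cx3cr1* only slightly. Exons of *Slc7a7* share 232 bases with *Oxa1l* on the other strand, a gene at 35.0 to 47.7 CPM that was not called at any age. The strand setting of the counting was not given in the sources used here.

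*Slc7a6* (y+LAT2), the remaining light chain, was counted at 30.5 to 49.8 CPM. P6 cKO libraries had 31.5 and 36.7 CPM against 48.2 and 47.3 in P6 WT, a difference of -0.49 (log2, SE 0.104, adjusted p = 0.00787) that is under the fold required. Its neighbour *Slc7a6os*, at 15.7 to 22.6 CPM, differed by -0.48 at the same age (SE 0.0818, adjusted p = 0.00220). The heavy chain *Slc3a2* lay between 198 and 302 CPM and was not called at any age, with differences of -0.03, -0.16 and -0.16.

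Of the 4 cationic carriers, which bring in arginine and lysine, *Slc7a2* (CAT2, chr8:40862396-40922308, plus strand) was called. Its level was 90.3 and 92.0 CPM in P1 WT and 107 and 106 in P1 cKO, 71.3 and 59.1 against 62.6 and 78.2 at P6. At P8 it was 257 and 251 CPM in WT but 84.7 and 86.4 in cKO. The P8 cKO level was 2.97 times lower (log2 difference -1.57, SE 0.109, adjusted p = 4.91e-06). P8 WT libraries thus stood apart from the other 10, which lay between 59.1 and 107. *Slc7a1* (CAT1) lay between 52.5 and 80.3 CPM and *Slc7a3* (CAT3) between 1.15 and 11.2, and neither was called between genotypes. At P1 the difference of *Slc7a3* was 0.98 (log2, SE 0.265), 1.97 times as high in cKO, with an adjusted p of 0.0515. That of *Slc7a1* at P1, 0.41 (adjusted p = 0.0213), was under the fold required. *Slc7a4*, a relative without a firmly known substrate, lay between 1.70 and 6.48 CPM, was not called between genotypes and shares 554 exon bases with *P2rx6*.

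*Slc38a2* (SNAT2, chr15:96687392-96699730, minus strand) is the system A carrier whose transcript rises when cells lack amino acids. It was counted at 170.4 and 177 CPM in P1 WT and 162 and 153 in P1 cKO, at 164 and 161 against 178 and 187 at P6, and at 668 and 709 against 189 and 185 at P8. As with *Slc7a2*, the P8 WT libraries stood apart from all others, which lay between 153 and 189. The P8 difference was -1.88 (log2, SE 0.0482, adjusted p = 1.05e-08), 3.69 times lower in cKO, after -0.14 at P1 and 0.17 at P6. The fibroblast sum was also highest in the P8 WT libraries. So was the sum of the stem cell and proliferation list, with *Egfr* as its largest member there. *Mki67* and *Top2a* of that list were lower in P8 WT than in P1 WT and P6 WT libraries. The part of these sums and genes in the levels of *Slc38a2* and *Slc7a2* was not tested.

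*Slc38a3* (SNAT3, chr9:107650634-107669530, minus strand) is the system N carrier through which astrocytes release glutamine. P1 WT libraries had 76.7 and 55.7 CPM against 49.4 and 47.3 in cKO, P6 libraries 105 and 93.7 against 71.9 and 68.2, and P8 libraries 28.9 and 26.3 against 7.72 and 8.40. The values of cKO libraries lay below those of WT libraries at all 3 ages. The difference was called at P8 (3.42 times lower, log2 -1.77, SE 0.141, adjusted p = 1.19e-05), while -0.45 at P1 had an adjusted p of 0.0734 and -0.50 at P6, with an adjusted p of 0.0228, was under the fold required. The sum of astrocyte markers was also lower in P8 cKO than in P8 WT libraries. Its member *Aldh1l1* was higher there, at 73.3 and 72.1 CPM in P8 cKO against 52.4 and 51.3 in P8 WT. The part of these markers in the result was not tested.

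*Slc38a4* (SNAT4, chr15:96994820-97055956, minus strand) is imprinted in mice and is best known from liver and placenta. It had no count in the P1 WT libraries against 149 and 157 counts in P1 cKO, 75 and 39 against 4 and 0 counts at P6, and 488 and 527 against 311 and 517 counts at P8. In CPM these were 2.53 and 2.76 in P1 cKO, 1.18 and 0.569 in P6 WT, 0.0609 and 0 in P6 cKO, 8.21 and 7.30 in P8 WT and 4.24 and 6.15 in P8 cKO. With 3 counts over the P1 WT group as the floor, cKO was at least 124-fold higher at P1 (adjusted p = 0.000518). At P6 it was lower in cKO (adjusted p = 0.00194), on 4 counts in that group. At P8 the difference was -0.58 (log2, SE 0.438) and did not pass the test (adjusted p = 0.366). The fibroblast sum, though not each of its markers, had the same order of labels at each age, and its part was not tested.

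*Slc38a1* (SNAT1), the other system A carrier of the brain, lay between 154 and 265 CPM and was not called. Its difference of -0.31 at P1 (adjusted p = 0.00156) was under the fold required. The remaining Slc38 carriers serve the lysosome and the Golgi or have less settled roles, and none was called between genotypes. *Slc38a10* lay between 121 and 189 CPM, *Slc38a7* between 33.6 and 59.9, *Slc38a6* between 37.8 and 61.0, and *Slc38a9*, an arginine sensor of the lysosome, between 22.8 and 29.8. *Slc38a7*, a lysosomal glutamine carrier, had the largest of their genotype differences, 0.48 at P8 (log2, SE 0.0715, adjusted p = 0.000714).

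The taurine carrier *Slc6a6* (TauT, chr6:91684053-91759066, plus strand) had the highest level per length, with 121 CPM per kb of exon on average, ahead of *Slc7a8* at 38.2 and *Slc38a2* at 29.2. It was counted at 631 and 632 CPM in P1 WT and 546 and 542 in P1 cKO, at 1085 and 1013 against 800 and 826 at P6, and at 1863 and 1898 against 1210.2 and 1194 at P8. At each age both cKO libraries lay below both WT libraries. The difference grew from -0.21 (log2, adjusted p = 0.00555) at P1 to -0.37 (adjusted p = 7.29e-05) at P6 and -0.65 (SE 0.0359, adjusted p = 1.19e-06) at P8, where it was 1.56-fold and called. The changes of the genotype effect from P1 to P8 and from P6 to P8 passed the test (-0.43 and -0.28, adjusted p = 0.000223 and 0.00416), and that from P1 to P6 did not (-0.15, adjusted p = 0.0792).

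*Slc6a9* (GlyT1, chr4:117834506-117875198, plus strand) takes up glycine. P1 libraries had 5.93 and 5.57 CPM in WT and 13.1 and 12.1 in cKO, P6 libraries 3.42 and 3.62 against 9.31 and 9.85, and P8 libraries 16.8 and 15.7 against 14.4 and 16.8. It was 2.19 times as high in cKO at P1 (log2 1.13, SE 0.111, adjusted p = 0.000246) and 2.72 times at P6 (1.44, SE 0.114, adjusted p = 1.93e-05), and at P8 the groups overlapped (-0.06, SE 0.108). Its exons share 1429 bases with *Ccdc24* on the other strand. *Ccdc24* was counted at 1.32 to 5.28 CPM and was not called at any age, and reads of the shared bases could have been given to either gene. Of 8 neuron markers, 3 were detected, *Stmn2*, *Syt1* and *Tubb3*, and *Stmn2* made up most of their sum. They summed to 232 to 249 CPM in P6 cKO libraries against 116 to 125 in P6 WT, at P1 to 128 to 131 against 134 to 135 and at P8 to 176 to 178 against 65.2 to 68.5. *Tubb3* did not follow the sum at P6, at 17.1 and 16.7 CPM in cKO against 18.3 and 16.7 in WT. *Syt1* was higher in cKO at P1, at 11.9 and 9.16 against 2.03 and 2.26. The part of these markers in the levels of *Slc6a9* was not tested.

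*Slc6a17* (NTT4, chr3:107467543-107518018, minus strand), a vesicular carrier of neutral amino acids in neurons, was lower in P8 cKO libraries. It stood at 8.16 and 10.3 CPM in P1 WT and 9.81 and 10.8 in P1 cKO, 6.86 and 6.00 against 5.19 and 6.50 at P6. At P8 it stood at 11.7 and 10.3 in WT and 6.43 and 7.07 in cKO. The P8 difference was -0.70 (log2, SE 0.162, adjusted p = 0.00842). Without replicate 1 of P8 WT the adjusted p was 0.0576, and without replicate 1 of P8 cKO it was 0.0621, so the call rested on both of these libraries. The sum of the 3 detected neuron markers, most of it *Stmn2*, was higher in P8 cKO than in P8 WT libraries, and its part in the level of *Slc6a17* was not tested.

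Neither *Slc6a8* nor *Slc6a15* nor *Slc6a12* was called between genotypes. *Slc6a8*, the creatine carrier, lay between 58.2 and 98.8 CPM, and its difference of 0.51 at P8 (adjusted p = 0.00776) was under the fold required. *Slc6a15*, a carrier of branched-chain amino acids and proline, lay between 4.56 and 16.1 CPM. *Slc6a12*, the betaine carrier, had between 0 and 126 counts in a library, 0 to 1.75 CPM, and at P6 it was at 0 in 1 library of each label. Of the proton-coupled carriers, *Slc36a4* lay between 47.1 and 82.3 CPM. *Slc36a1* (PAT1), which exports amino acids from the lysosome, lay between 10.7 and 81.1 CPM, and its replicates differed 3.35-fold in P6 WT, 2.68-fold in P6 cKO and 3.54-fold in P8 WT, so its genotype differences had a standard error of 0.67 to 0.68 (log2).

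**Figure D3:**
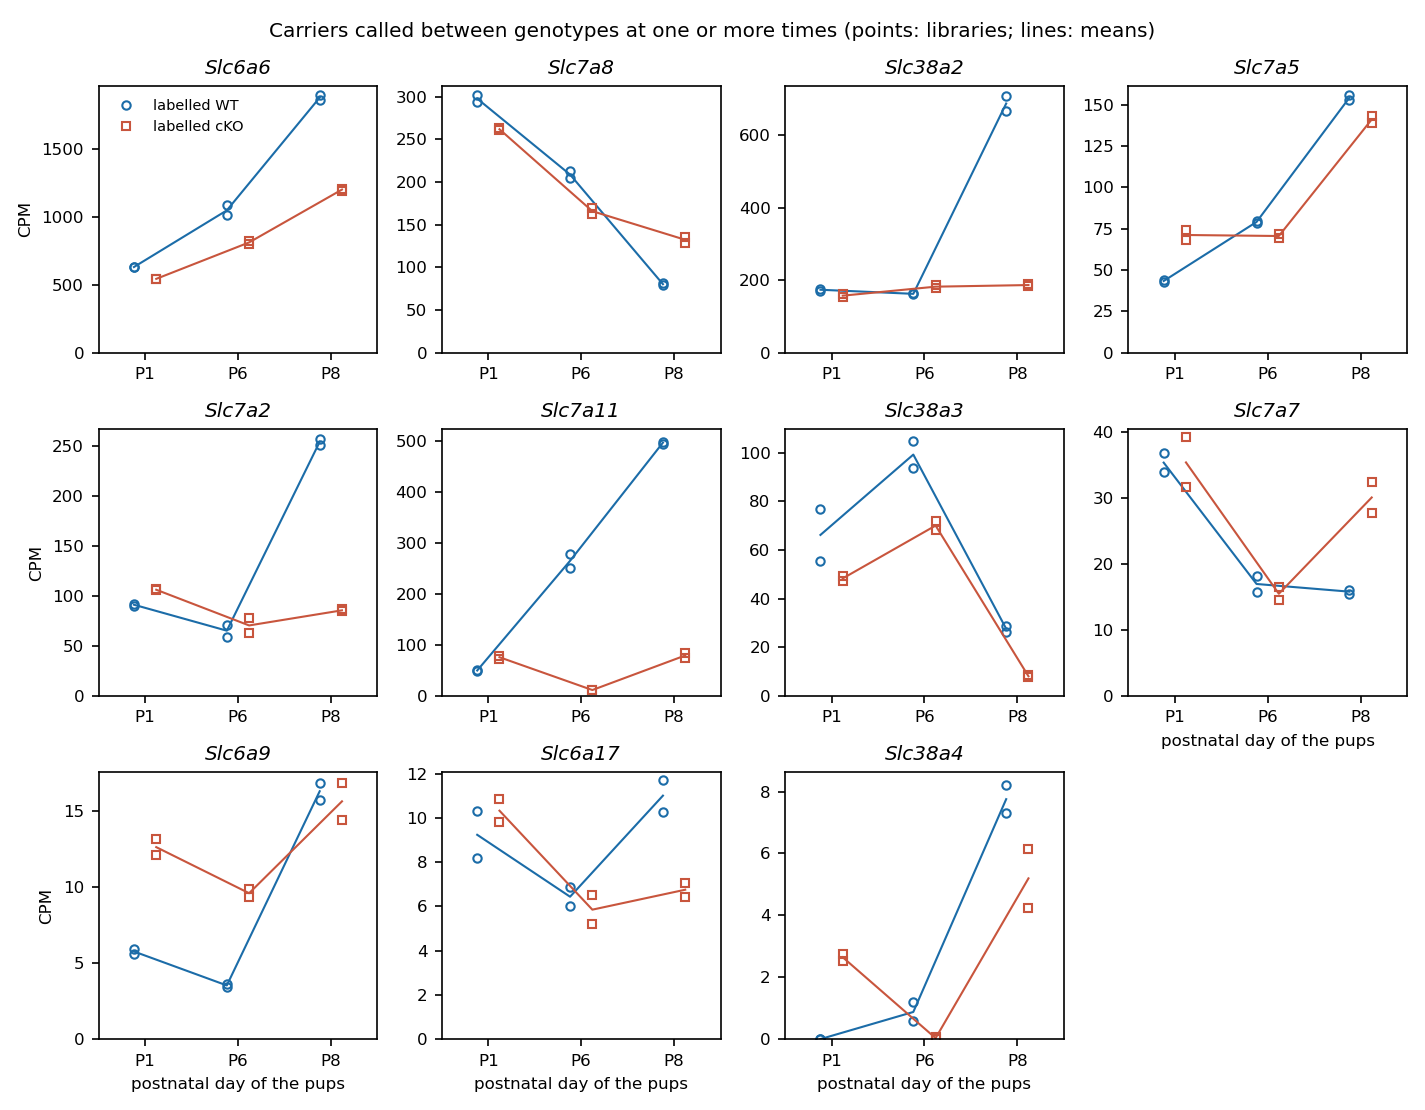
CPM of 11 carriers called between genotypes at one or more ages, with postnatal day on the x axis, circles for libraries labelled WT, squares for libraries labelled cKO and lines through the group means, each panel on its own linear axis from 0. *Slc38a2* and *Slc7a2* stand apart in P8 WT libraries, at 668 and 709 and at 257 and 251 CPM, and *Slc7a11* falls to 10.7 and 12.2 in P6 cKO libraries.

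**Figure D4:**
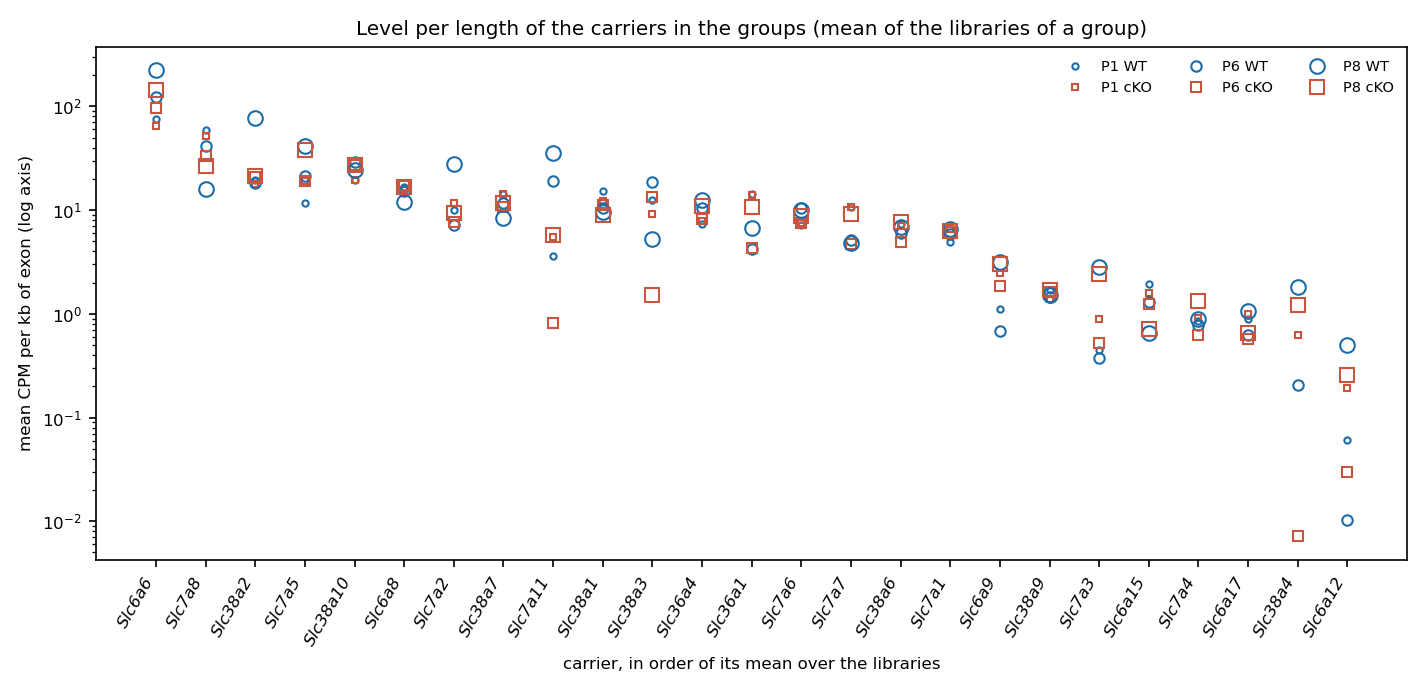
Mean CPM per kb of exon (log axis) of 25 carriers in the 6 groups, in the order of their mean over all libraries, with circles for WT, squares for cKO and larger symbols for later ages. Within each group *Slc6a6* lies above the other carriers drawn, and *Slc38a4* is not drawn for P1 WT, where it had no count.

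Per length of exon, the order over all libraries after *Slc6a6*, *Slc7a8* and *Slc38a2* went on with *Slc7a5* at 25.1 and *Slc38a10* at 24.4 CPM per kb and ended with *Slc38a4* at 0.645 and *Slc6a12* at 0.176. *Slc7a5* and *Slc38a10* did not stand apart, since their ranges over the libraries were 11.6 to 42.0 and 18.9 to 29.4. *Slc6a6* ranged from 64.0 to 224 and *Slc38a2* from 17.3 to 80.2, so that *Slc6a6* in its lowest library lay below *Slc38a2* in its highest. *Slc7a11* ranged from 0.768 to 35.8 CPM per kb and so varied more than its neighbours in the order, *Slc38a7* (8.10 to 14.5) and *Slc38a1* (8.95 to 15.4).

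The steps between ages were tested within each label, and they share their libraries with one another and with the genotype comparisons. From P1 to P6, 5 carriers rose and 3 fell in WT, where 12.2% of all genes rose and 10.9% fell. In cKO 0 rose and 8 fell, against 11.0% and 10.4% of all genes. With DESeq2 0 carriers rose in cKO, and at an unadjusted p below 0.05 with the same fold 0 did as well. From P6 to P8, 10 carriers rose and 3 fell in WT, against 8.66% and 10.3% of all genes, and 8 rose and 3 fell in cKO, against 11.9% and 12.2%. The share of carriers that rose from P6 to P8, 38.5% in WT and 30.8% in cKO, was thus above that of all genes, while the share that fell (11.5% under each label) was near it.

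In WT, the rises from P1 to P6 were *Slc7a11* (5.32-fold), *Slc7a5* (1.82-fold), *Slc6a6* (1.66-fold), *Slc38a10* (1.51-fold) and *Slc38a4*, which went from 0 counts in both libraries to 75 and 39. The falls included *Slc7a7* (2.08-fold) and *Slc6a9* (1.63-fold). In cKO the falls included *Slc7a11* (6.63-fold), *Slc38a4* (149 and 157 counts to 4 and 0), *Slc7a7* (2.29-fold), *Slc6a17* (1.76-fold), *Slc7a3* (1.71-fold), *Slc7a8* (1.58-fold) and *Slc7a2* (1.51-fold). *Slc7a7* fell under both labels, and *Slc7a11* and *Slc38a4* moved in opposite directions. Some of these calls rested on 1 library. That of *Slc38a10* in WT fell under the fold required without replicate 1 of P1 WT (log2 0.58), and in cKO so did that of *Slc7a2* without replicate 1 of P6 cKO (-0.44). The fall of *Slc7a3* was lost without any one of 7 libraries, with its smallest value at -0.38 without replicate 2 of P1 cKO (adjusted p = 0.310).

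From P6 to P8 in WT, *Slc38a4* rose 8.85-fold, *Slc7a3* 7.50-fold, *Slc6a9* 4.62-fold, *Slc38a2* 4.24-fold, *Slc7a2* 3.90-fold, *Slc7a5* 1.95-fold, *Slc7a11* 1.88-fold, *Slc6a6* 1.79-fold and *Slc6a17* 1.71-fold. *Slc6a12* rose from 4 and 0 counts to 79 and 126. *Slc38a3* fell 3.59-fold, *Slc7a8* 2.60-fold and *Slc6a15* 1.98-fold. In cKO, *Slc7a11* rose 6.93-fold, *Slc7a3* 4.67-fold, *Slc7a4* 2.11-fold, *Slc7a5* 2-fold, *Slc7a7* 1.94-fold, *Slc6a9* 1.63-fold and *Slc38a6* 1.57-fold, *Slc38a4* went from 4 and 0 counts to 311 and 517, and *Slc38a3* fell 8.68-fold and *Slc6a15* 1.72-fold. *Slc7a5*, *Slc7a3*, *Slc7a11*, *Slc6a9* and *Slc38a4* thus rose under both labels, and *Slc38a3* and *Slc6a15* fell under both. The rise of *Slc38a4* in WT was 3.15 on the log2 scale and 3.76 without replicate 1 of P6 WT. Without replicate 2 of P6 WT the rise of *Slc6a12* had an adjusted p of 0.0545. In cKO the fall of *Slc6a15* was lost without replicate 2 of P6 or of P8 (adjusted p = 0.0580 and 0.0586), and the rise of *Slc7a4* was lost without any one of 5 libraries (adjusted p = 0.0503 to 0.211) and was 1.69 (log2) in place of 1.07 without replicate 1 of P6 cKO. *Slc38a2* and *Slc7a2* rose in WT, and their step differed between the labels by -2.05 and -1.68 (log2, SE 0.0668 and 0.152, adjusted p = 1.72e-07 and 6.10e-05). The fibroblast sum was higher at P8 than at P6 under both labels, and its part in the steps was not tested.

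The change of the genotype effect between ages was tested as an interaction and called at an adjusted p below 0.05. It was called for 9 carriers between P1 and P6, 13 between P6 and P8 and 20 between P1 and P8, against 15.3%, 21.5% and 25.7% of all genes. *Slc7a6os* was called in addition between P1 and P6 (-0.57) and between P6 and P8 (0.47). Of the 20 carriers between P1 and P8, 13 moved towards lower levels in cKO and 7 towards higher ones. The lower ones included *Slc7a11*, *Slc7a2*, *Slc38a2*, *Slc38a3* and *Slc6a9*, at -3.26, -1.79, -1.74, -1.32 and -1.19, and the higher ones *Slc7a7* and *Slc7a8* at 0.93 and 0.91 (log2). Without replicate 2 of P1 cKO or replicate 1 of P8 cKO, 13 carriers were called between P1 and P8.

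Other genes of amino acid handling were followed as 4 lists, which had been drawn up with earlier results of these data known. Among 5 other plasma membrane carriers including *Slc3a2*, 0 were called at P1, *Slc1a5* was lower at P6, and at P8 *Slc16a10* and *Slc43a2* were higher in cKO and *Slc1a5* lower, where 6.38% of all genes were lower at P6 and 11.2% higher and 8.37% lower at P8. *Slc43a2*, an exporter of large neutral amino acids, had 146 and 153 CPM in P8 WT and 236 and 241 in P8 cKO (log2 difference 0.67, SE 0.0474, adjusted p = 5.41e-06). *Slc1a4*, a carrier of alanine, serine and cysteine, lay between 37.7 and 79.9 CPM and was not called. Its differences of 0.43 at P1 and 0.29 at P6 (log2, adjusted p = 0.0167 and 0.0392) were under the fold required. *Slc16a10* and *Slc1a5* were named after their values were seen. *Slc1a5* (ASCT2), a glutamine exchanger, had 18.7 and 17.8 CPM in P6 WT and 6.47 and 4.96 in P6 cKO.

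Of 14 genes of the amino acid response that ATF4 drives, 2 were higher in cKO at P1, 4 were higher and 1 lower at P6, and 1 was higher and 1 lower at P8. Of all genes, 4.01% were higher at P1, while P6 had 7.16% higher and 6.38% lower and P8 had 11.2% higher and 8.37% lower. The transcript of *Atf4* itself, at 139 to 211 CPM, was not called at any age, nor were *Sesn2* (71.9 to 136 CPM) and *Psat1* (60.5 to 116). The *Atf4* differences of 0.30 at P1 and 0.35 at P6 (log2, adjusted p = 0.0187 and 0.00280) were under the fold required. So was that of *Sesn2* at P8, -0.44 (adjusted p = 0.000368). The genes called, which were named after their values were seen, were *Chac1* and *Nupr1* at P1, *Chac1*, *Trib3*, *Cth* and *Phgdh* as higher and *Pycr1* as lower at P6, and *Ddit3* as higher and *Pycr1* as lower at P8. *Pycr1*, the proline synthesis enzyme, had 8.32 and 6.92 CPM in P6 WT against 2.42 and 3.25 in cKO, and 30.6 and 32.0 against 8.33 and 9.80 at P8. From P6 to P8, 7 of the 14 rose in WT and 7 in cKO and 0 fell, where 8.66% and 11.9% of all genes rose and 10.3% and 12.2% fell. *Asns*, the asparagine synthetase and a standard readout of that response, rose from 29.0 and 28.0 to 81.7 and 85.1 CPM in WT and from 44.7 and 40.6 to 80.8 and 86.3 in cKO. Its difference between the labels was 0.44 at P1 and 0.58 at P6 (log2, adjusted p = 0.00540 and 0.000368), under the fold required. At P8 it was 0.00 (SE 0.0725).

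Among 12 detected genes that sense amino acids at the lysosome, 0 were called at P1 and P6 and 2 were higher in P8 cKO, *Sesn1* and *Lamtor3*, where 11.2% of all genes were higher. *Sesn1*, a sestrin, had 89.4 and 86.0 CPM in P8 WT and 131 and 137 in P8 cKO, and the Rag GTPase *Rragc* (145 to 215 CPM) and *Fnip1* (91.1 to 132 CPM) were not called. The P8 differences of *Rragc* and *Fnip1*, 0.46 and 0.49 (log2, adjusted p = 0.000305 and 0.000269), were under the fold required. Of 11 genes of GABA, glycine, creatine and monoamine metabolism, *Gatm* was lower in cKO at P1, *Gldc*, *Amt* and *Ckb* were higher at P6, and 4 were higher at P8, among them *Gatm*, *Gldc* and *Ckb*, beside 0.892% of all genes lower at P1, 7.16% higher at P6 and 11.2% higher at P8. *Gldc* and *Amt*, parts of the glycine cleavage system, were higher in P6 cKO at 64.3 and 72.0 against 29.9 and 34.1 CPM and at 29.5 and 31.7 against 11.4 and 11.2, while at P1, where *Slc6a9* was higher as well, neither was called. *Ckb*, brain creatine kinase, had 1832 and 1668 CPM in P6 cKO against 1038 and 1202 in WT. *Abat*, which degrades GABA (73.4 to 144 CPM), and *Maoa* (63.8 to 123 CPM) were not called at any age. The *Maoa* differences of 0.18 at P6 and -0.35 at P8 (log2, adjusted p = 0.0471 and 0.00119) were under the fold required.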

How the data were processed

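The 12 libraries of mRNA were read from 1 table, in which the authors deposited whole-number counts of reads per gene, not normalized. Per the methods and labels, reads had been mapped with HISAT2 to GRCm38 (mm10), and the program that counted them, its annotation and its strand setting were not given in the sources used here. Of 18903 identifiers, 18873 were found in GENCODE vM21, from which positions and exon lengths came. Groups were taken from the labels. Counts were scaled by TMM (factors 0.943 to 1.07) and tested with edgeR 4.0.16 in R 4.3.3, with 1 mean for each of 6 groups, a filter on low counts (17938 genes kept), the quasi-likelihood test and Benjamini-Hochberg adjustment over all genes. CPM are counts scaled to the TMM-adjusted library size, and CPM per kb are divided by the exon length in kb. The steps were tested on simulated counts. Alternatives were DESeq2 1.42.0, its size factors in edgeR, no filter, unadjusted p, a fold of at least 2, the replicate number as a block, the libraries of the compared groups alone, and the omission of single libraries, where the lone library of a group was taken to vary as the other groups do. The common coefficient of variation between replicates was 0.178, and an exact permutation test of 2 against 2 libraries cannot go below 0.333. Named were the 27 genes except for 1 carrier, which is counted in the totals but, like 1 gene of the other lists, is not reported here, with the values of every library for those called between genotypes, and in each list of other genes the 3 of highest mean CPM, while further genes were named after their values were seen. The members and lists were chosen with earlier results of these data known. Upstream sequences were matched by symbol in a RefSeq table.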

Additional observations from a re-analysis of the deposited data

Results flagged for a closer look

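The results given here were chosen because the difference between cKO and WT libraries itself changed between 2 ages at an adjusted p below 0.05 in edgeR's interaction test, over 17938 genes. Values are changes of the cKO minus WT difference on the log2 scale, so a negative value means that the level in cKO fell relative to that in WT. No explanation was tested for any of them.

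Light chains of Slc7 changed in both directions. *Slc7a11* changed by -5.14 from P1 to P6, by 1.89 from P6 to P8 and by -3.26 from P1 to P8. *Slc7a5* changed by -0.88 from P1 to P6 and by -0.84 from P1 to P8, and *Slc7a6* by -0.57 from P1 to P6. *Slc7a7* and *Slc7a8* changed by 1.06 and 1.05 from P6 to P8 and by 0.93 and 0.91 from P1 to P8. Of the cationic carriers, *Slc7a2* changed by -1.68 from P6 to P8 and -1.79 from P1 to P8, and *Slc7a1* and *Slc7a3* by -0.46 and -1.20 from P1 to P8.

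Among the Slc38 carriers, *Slc38a2* changed by 0.31 from P1 to P6, by -2.05 from P6 to P8 and by -1.74 from P1 to P8, and *Slc38a3* by -1.27 from P6 to P8 and -1.32 from P1 to P8. *Slc38a1* changed by 0.41 from P1 to P6 and 0.24 from P1 to P8. *Slc38a9* changed by 0.47 and 0.44 over the same spans. *Slc38a6* and *Slc38a7* changed by 0.46 and 0.60 from P6 to P8 and by 0.25 and 0.47 from P1 to P8, and *Slc38a10* by 0.28 from P6 to P8. For *Slc38a4* the spans from P1 start at a group without a count, so no size is given, and their adjusted p was 0.000117 to P6 and 0.000256 to P8. From P6 to P8 it changed by 4.17, on 4 counts in P6 cKO, and the value was 8.31 without replicate 1 of P6 cKO, 3.23 without replicate 2 of P6 cKO and between these without replicate 1 of P6 WT. *Slc36a4* changed by -0.45 from P1 to P6 and -0.29 from P1 to P8.

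Of the Slc6 carriers, *Slc6a9* changed by -1.50 from P6 to P8 and by -1.19 from P1 to P8, *Slc6a6* by -0.28 and -0.43, *Slc6a17* by -0.86 from P1 to P8 and *Slc6a8* by 0.60 from P1 to P8.

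Leaving out 1 library took some of these results over the threshold. From P1 to P8 this held for *Slc36a4*, *Slc38a1*, *Slc38a6*, *Slc38a9*, *Slc6a17*, *Slc6a8*, *Slc7a1* and *Slc7a3*, with adjusted p between 0.0505 and 0.140 where the call was lost. From P1 to P6 it held for *Slc38a2*, *Slc38a9* and *Slc7a6* (adjusted p between 0.0531 and 0.138), and from P6 to P8 for *Slc38a10* (between 0.0503 and 0.133).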

How the results depend on the processing

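None of the results on single carriers reversed under any alternative run. Of 99 such results, each a call in the main run, 78 kept the call throughout and 21 lost it at least once. Carriers that gained a call only under an alternative are not counted there. Of 244 values of the carrier counts under alternatives, 235 stayed within 1.5 times the main count. With a fold of at least 2, 2 carriers were higher in cKO at P1 and 0 at P8, and the carriers that changed with age were 4 in WT and 3 in cKO from P1 to P6 and 8 in WT and 6 in cKO from P6 to P8. Leaving out 1 library in turn, the carriers lower in cKO at P1 ranged from 0 to 1, with 1 without replicate 2 of P1 WT, and those with a changed genotype effect from P1 to P8 from 13 to 19. Between genotypes, *Slc7a11* at P1 and *Slc6a17* at P8 lost their call without the libraries named beside them. The steps of *Slc7a3* from P1 to P6 and of *Slc7a4* from P6 to P8 in cKO lost theirs on the libraries of the compared groups alone (adjusted p = 0.123 and 0.0983), where fewer libraries set the spread, as did the changed genotype effects of *Slc38a10* from P6 to P8, *Slc38a6* from P1 to P8 and *Slc38a9* from P1 to P6 (0.107, 0.0718 and 0.0799). Of the changes of genotype effect, *Slc38a10* from P6 to P8 and *Slc38a6* from P1 to P8 lost theirs with DESeq2's size factors (adjusted p = 0.0638 and 0.0601).

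No pairing by equal replicate number was seen over all genes, where deviations from the group means correlated at -0.0448 to 0.0743 over 15 pairs of groups. Such a correlation cannot exclude a shared preparation that moves few genes. *Slc36a1* was lower in replicate 2 than in replicate 1 in P6 WT, P6 cKO and P8 WT, at 10.7, 12.8 and 16.5 CPM against 36.9, 35.2 and 59.5. In the fit with the replicate block, 10 carriers changed from P1 to P6 in WT and 17 had a changed genotype effect from P1 to P8. Depth limits *Slc38a4* and *Slc6a12*, which had 0 to 527 and 0 to 126 counts in a library.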
